A study of Mus musculus with 12 samples.

Results

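*Man1a2* and 9 other α-mannosidase genes that act in N-glycan trimming were compared in the liver and the lung of newborn mice, out of 24421 genes with counts. The 10 genes were taken by symbol, for their place in the pathway, when earlier results of these data were already known. They are the Golgi class I mannosidases *Man1a2*, *Man1a* and *Man1c1*, the class I enzyme *Man1b1* of the early secretory pathway, the degradation factors *Edem1*, *Edem2* and *Edem3*, the Golgi mannosidase II genes *Man2a1* and *Man2a2*, and the endomannosidase gene *Manea*. RNA was sequenced from WT mice (Man1a2+/+) and null mice (Man1a2-/-), with 3 libraries for each genotype in each tissue and 12 libraries in all. The null mice were homozygous for an allele without exon 2, Man1a2tm1.1Ahe, a germline change bred from heterozygous parents, and tissue was taken soon after birth. No other allele or treatment was named for either genotype, and the same 3 mice of each genotype gave both tissues. The comparisons asked how the genes differed between liver and lung, how they differed between null and WT mice within each tissue, and whether the paralogs were higher where *Man1a2* was disrupted.

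N-linked glycans are added to new proteins in the endoplasmic reticulum as a block that carries glucose and mannose residues. Glucosidases remove the glucose, *Man1b1* and the EDEM proteins trim mannose from glycoproteins that fail to fold and so mark them for degradation, and the Golgi class I enzymes trim mannose from the glycoproteins that leave for the Golgi. Mannosidase II then removes further mannose after Mgat1 has added the first residue of a hybrid or complex glycan. Newborn liver secretes large amounts of glycosylated plasma protein, and newborn lung secretes surfactant and builds a ciliated epithelium.

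*Man1a2* (ENSMUSG00000008763) lies on the minus strand of chromosome 3 at chr3:100562208-100685503 in GRCm38, and its longest transcript in GENCODE M21 has 13 exons and 7969 bases. The second exon, which the null allele lacks, spans chr3:100656019-100656274 and is shown because it is the part of the gene that separates the genotypes. It has 256 bases, all of them coding, and takes up part or all of codons 101 to 186 of the 641 codons. Its length leaves a remainder of 1 when divided by 3. The minus strand reads as follows, 5′ to 3′.

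Man1a2 exon 2: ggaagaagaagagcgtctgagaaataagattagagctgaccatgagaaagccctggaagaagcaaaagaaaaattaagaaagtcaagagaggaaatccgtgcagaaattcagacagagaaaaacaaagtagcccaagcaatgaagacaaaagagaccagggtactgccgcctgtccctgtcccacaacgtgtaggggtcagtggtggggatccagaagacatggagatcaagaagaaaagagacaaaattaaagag

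Exon 2 made up 3.21% of the transcript's length. Reads were counted over the whole gene, so a transcript without this exon would still be counted through its other exons, and the *Man1a2* counts below are not a measure of the loss of exon 2.

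The Golgi class I genes share their exon structure downstream of exon 2, and this bears on whether their reads can be told apart. Of exons 3 to 12 of *Man1a2*, 10 in all, 9 have the same coding length in *Man1a*. The exon of 81 bases is shown for the 3 genes because it has the same length in each and can be compared base by base without gaps. It is exon 5 of *Man1a2* (chr3:100644541-100644621), exon 5 of *Man1a* (chr10:54014415-54014495) and exon 4 of *Man1c1* (chr4:134591356-134591436), each read from the minus strand 5′ to 3′, with capitals at the bases that differ from *Man1a2*.

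Man1a2: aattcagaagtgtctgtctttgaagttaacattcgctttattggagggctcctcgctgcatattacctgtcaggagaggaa

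Man1a: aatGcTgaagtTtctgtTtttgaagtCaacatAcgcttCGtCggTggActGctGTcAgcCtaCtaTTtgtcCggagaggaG

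Man1c1: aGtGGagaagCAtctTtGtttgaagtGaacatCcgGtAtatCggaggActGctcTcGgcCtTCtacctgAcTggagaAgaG

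The *Man1a* exon matched that of *Man1a2* at 60 of 81 positions (74.1%) and the *Man1c1* exon at 58 (71.6%), and no run of identical bases was longer than 8. The search for shared stretches covered only the principal transcript of each gene, which for *Man1a* has 5137 bases against 9647 in the union of its exons. In these transcripts, no stretch of 75 bases, the length of 1 read, was shared between a Golgi class I gene and any other annotated gene. The same held for 9 of the 10 genes. The exception was *Man2a2*, in which 5.59% of such stretches also occurred in *Hddc3*, *D7Ertd128e* or *Lockd*, and of whose exon bases 427 overlapped another gene, *Hddc3*, on the opposite strand. The only others were overlaps of 147 bases with *Gm16998* or *Gm47917* in *Man1a*, 67 bases with *Gm17133* in *Man2a1* and 234 bases in *Man1b1*. Those in *Man1b1* were with *AA543186* on the opposite strand or *Gm25220* on the same strand. Whether the counting used the strand is not given in the sources used here, so reads in these overlaps are uncertain.

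**Figure D1:**
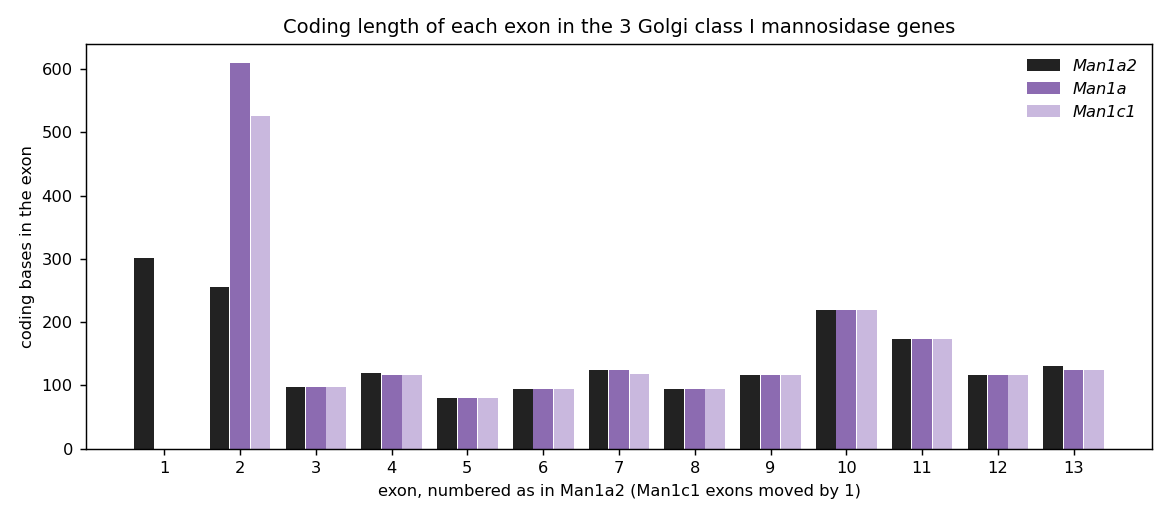
Coding bases (y axis) in each exon (x axis, numbered as in *Man1a2*, with *Man1c1* exons moved by 1) of the 3 Golgi class I mannosidase genes. From exon 3 on, the bars of the 3 genes have nearly the same height, and the 256 coding bases of *Man1a2* exon 2 face a single much longer first coding exon in *Man1a* and *Man1c1*.

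Total counts ranged from 26759463 to 42914295 per library, and all 10 genes passed the filter on low counts in every comparison, with 423 to 12119 counts per library. Levels are given as CPM, counts relative to the library total after scaling by the trimmed mean of M-values (TMM), and, where genes are compared with one another, as CPM per kilobase of exon (RPKM). The tissue labels were checked against marker genes, whose CPM in this paragraph are relative to the total counts, without TMM scaling. The 5 hepatocyte markers summed to between 124238 and 154700 CPM in the livers and to at most 622 CPM in the lungs. The 5 lung epithelium markers summed to between 24123 and 31031 CPM in 5 lung libraries but to 360 CPM in the library labelled null lung 1, none of the 5 being at 0 there. That library also held 19350 CPM of heart muscle markers and 12776 CPM of skeletal muscle markers, against at most 624 and 64.5 CPM in the other lungs, and its correlation with the other lung libraries was 0.842 to 0.863. It goes against its label, so the null lung results below are given with and without it. The library null liver 1 held 5459 CPM of skeletal muscle and 303 CPM of heart muscle markers, against at most 4.25 and 2.85 CPM in the other livers, but its hepatocyte markers, at 142202 CPM, were within the range of the other livers. Red cell precursor markers summed to 1379 to 2801 CPM in liver and 135 to 406 CPM in lung, and neutrophil granule markers to 1499 to 3189 CPM and 61.2 to 586 CPM, with overlap between the genotypes in each tissue. The part of the muscle transcripts in any result below was not tested. In whole tissue, fewer cells of a type and less RNA per cell cannot be told apart.

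In WT mice, the class II gene *Man2a1* was the most abundant of the 10 per length in both tissues, at 51.8 ± 3.60 RPKM in liver and 24.0 ± 1.99 RPKM in lung (mean ± SD, n = 3). The order below it differed between the tissues. In WT liver, *Edem1* followed at 15.8 ± 0.504 RPKM, and *Edem3*, *Edem2*, *Man1a*, *Man1b1* and *Man1a2* came next between 13.5 and 8.77 RPKM, each overlapping its neighbour in the order over the 3 libraries. The lowest 3 in WT liver were *Manea* at 6.64 ± 0.161, *Man1c1* at 3.96 ± 0.159 and *Man2a2* at 3.14 ± 0.354 RPKM, and these did not overlap their neighbours. In WT lung, *Edem3* at 16.6 ± 0.527 RPKM and *Man1b1* at 14.9 ± 0.354 RPKM came next, followed by *Man1a2* at 12.03 ± 2.22 RPKM, which overlapped *Edem2* at 11.6 ± 1.03 RPKM. *Man1a*, in the middle of the order in WT liver at 11.1 ± 1.08 RPKM, was the lowest in WT lung at 4.16 ± 0.147 RPKM. The order below *Man2a1* depends on the length given to each gene. With the longest transcript in place of the union of all exons, *Man1a* at 20.9 ± 2.03 RPKM and *Edem2* at 19.5 ± 2.80 RPKM came above *Edem1* at 16.8 ± 0.535 RPKM in WT liver. In WT lung *Man1a*, at 7.82 ± 0.275 RPKM on that length, lay above *Man1c1* at 5.87 ± 0.555 RPKM and *Manea* at 4.94 ± 0.465 RPKM.

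**Figure D2:**
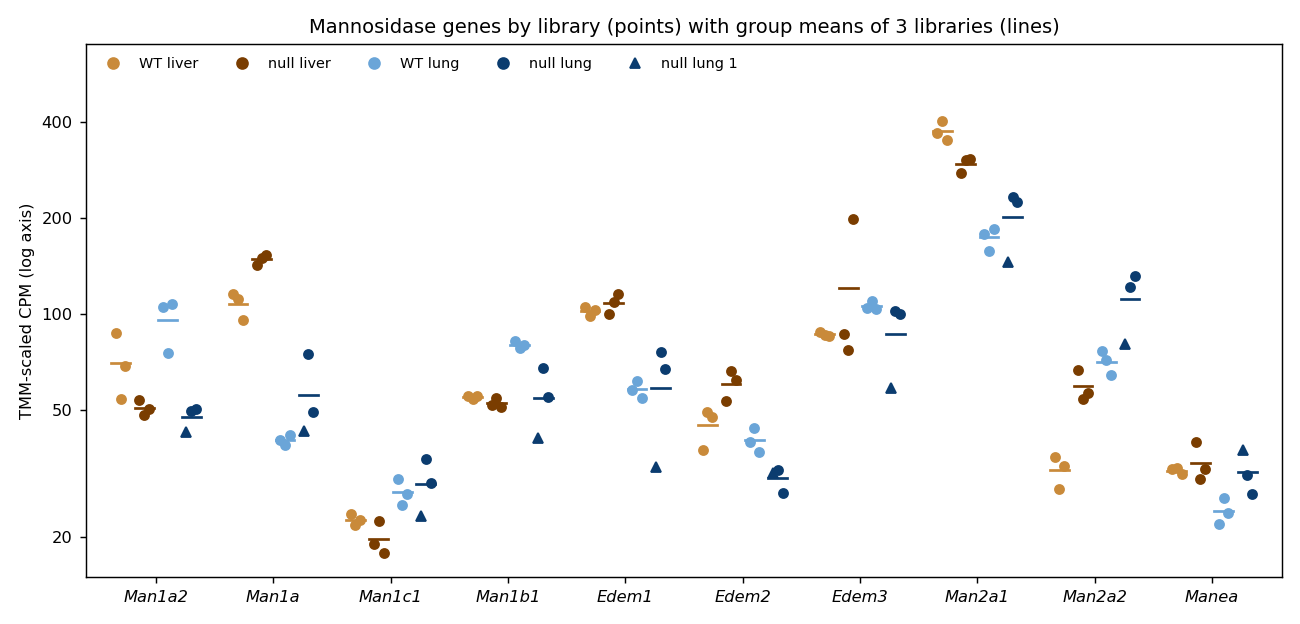
TMM-scaled CPM (y axis, log scale) of the 10 genes (x axis) in each of the 12 libraries, with 1 point per library, a line at the mean of each group of 3 and a triangle for the library labelled null lung 1. *Man1a* is lower in lung than in liver and *Man2a2* higher, the null points of *Man1a2* lie below the WT points in both tissues, and 1 null liver point of *Edem3* stands apart at 199 CPM.

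Between WT lung and WT liver, 8 of the 10 genes passed the test, which was edgeR's quasi-likelihood test with a Benjamini-Hochberg adjusted p below 0.05 over 15635 genes and at least a 1.2-fold difference. Of these, 4 were higher in lung, against 39.8% of all genes tested, and 4 were lower, against 37.2%. The groups did not overlap in 8 of the 10 genes, against 81.3% of all genes, so the share of mannosidase genes that differed between the tissues was near that of all genes. The median log2 difference was 0.056 over the 10 genes and 0.041 over all genes tested.

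*Man1a*, whose Golgi enzyme shares the trimming step of *Man1a2*, showed the strongest tissue difference of the class I genes. It stood at 115, 111 and 95.6 CPM in the WT livers 1 to 3 and at 40.2, 38.8 and 41.6 CPM in the WT lungs. Every lung was below every liver, and the log2 difference was -1.43 (SE 0.0935, adjusted p = 6.4e-07), or 2.70-fold lower in lung. *Man1a2* went the other way, at 87.0, 54.2 and 68.6 CPM in the WT livers and 105, 75.5 and 107 CPM in the WT lungs. Its lowest library in each tissue carried the number 2, and the groups overlapped. The log2 difference of *Man1a2* was 0.44 (95% interval 0.012 to 0.87, adjusted p = 0.057) without regard to the mouse, which missed the threshold. With the mouse as a block, pairing the liver and the lung of the same animal, it was 0.45 (95% interval 0.21 to 0.69, adjusted p = 0.0038), which passed. In that fit 9 of the 10 genes passed, against 12154 of all 15635 genes tested. *Man1c1*, the remaining Golgi class I gene, was slightly higher in lung, with 23.6, 21.8 and 22.6 CPM in liver, 30.4, 25.3 and 27.3 CPM in lung and a log2 difference of 0.28 (SE 0.0985, adjusted p = 0.0275). That call was lost without WT liver 2 (0.24), WT liver 3 (0.26), WT lung 1 (0.20) or WT lung 3 (0.29), with all 12 libraries in 1 fit (0.29, adjusted p = 0.132), and with the trend on GC content and length removed, which left a difference of 0.0077 (adjusted p = 0.94).

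The genes of the quality control step split in direction. *Man1b1* stood between 54.2 and 55.4 CPM in the WT livers and between 78.3 and 82.1 CPM in the WT lungs, a log2 difference of 0.53 (SE 0.0746, adjusted p = 0.000129). *Edem3* was higher in lung by 0.28 (SE 0.0795, adjusted p = 0.00962), but without WT liver 3 (0.26) or WT lung 2 (0.25) it fell below the minimum of 1.2-fold, and with all 12 libraries in 1 fit it missed the threshold (0.29, adjusted p = 0.451). *Edem1*, which is induced by the unfolded protein response, was lower in lung, between 54.6 and 61.8 CPM against 98.5 to 105 CPM in liver, a log2 difference of -0.83 (SE 0.085, adjusted p = 1.5e-05). *Edem2*, which starts the mannose trimming of misfolded glycoproteins, overlapped between the tissues, with a log2 difference of -0.16 (95% interval -0.43 to 0.10, adjusted p = 0.227) that passed only without WT liver 1 (-0.29) among the fits that left out 1 library.

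The mannosidase II genes moved in opposite directions between the tissues. *Man2a1* stood between 351 and 402 CPM in the WT livers and between 157 and 185 CPM in the WT lungs (log2 difference -1.12, SE 0.116, adjusted p = 1.6e-05). *Man2a2* (ENSMUSG00000038886, chr7:80349097-80371375), which encodes the closely related enzyme known as mannosidase IIx, stood at 35.5, 28.4 and 33.3 CPM in the livers and 76.6, 71.5 and 64.4 CPM in the lungs (log2 difference 1.11, SE 0.113, adjusted p = 1.4e-05). *Man2a2* was therefore 5.74 ± 0.901% of the summed RPKM of both genes in WT liver and 22.3 ± 2.38% in WT lung. No library scaling can change this share, but it depends on the length given to each gene. With the longest transcript the share of *Man2a2* was larger in both tissues. On that length *Man2a1* and *Man2a2* stood at 53.5 and 4.94 RPKM in WT liver and at 24.8 and 10.8 RPKM in WT lung. *Manea*, whose Golgi enzyme removes glucose together with a mannose from glycans that escaped the glucosidases, was lower in lung by 0.44 on the log2 scale (SE 0.0936, adjusted p = 0.00192), with 21.9 to 26.4 CPM against 31.4 to 32.9 CPM.

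These directions depend in part on how the tissues were scaled. With total counts in place of TMM, the median of all genes moved from 0.041 to 0.83, *Edem2* became 0.63 and *Manea* 0.35 higher in lung, the *Edem1* call was lost (-0.039, adjusted p = 0.72), and calls over all genes went from 6227 higher and 5812 lower to 10133 higher and 2997 lower. Taken relative to the median of all genes, all 10 mannosidase genes had the same sign under both scalings.

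In null liver, *Man2a2* had the lowest adjusted p of the mannosidases, and the WT and null libraries did not overlap in 5 of the 10 genes, against 46.6% of all genes. *Man2a2* stood at 35.5, 28.4 and 33.3 CPM in the WT livers and at 66.9, 54.1 and 56.7 CPM in the null livers. It was 1.82-fold higher in null (log2 0.87, SE 0.128, adjusted p = 0.00487), with no overlap, and it passed the test under each of the 15 alternatives tried. *Man1a* (ENSMUSG00000003746, chr10:53904785-54076609) was 1.38-fold higher, rising from 115, 111 and 95.6 CPM in WT to 142, 150 and 153 CPM in null (log2 0.46, SE 0.113, adjusted p = 0.0231). *Edem2* (ENSMUSG00000038312, chr2:155701677-155729475) was 1.35-fold higher, from 37.4, 49.3 and 47.5 CPM in WT to 53.3, 66.0 and 61.9 CPM in null (log2 0.43, SE 0.133, adjusted p = 0.0479). These were the 3 genes that passed, 3 of 10 higher against 13.5% of the 14343 genes tested and 0 of 10 lower against 13.4%. The balance moved with the processing, to 3 higher and 2 lower with DESeq2 or with the GC and length trend removed, and to 2 higher and 2 lower with upper-quartile factors. Over all genes, DESeq2 called 2375 higher and 2155 lower of 15181. Of 14343 genes, the calls were 1934 higher and 2164 lower with the trend removed, and 1434 and 2666 with upper-quartile factors. The median log2 difference was 0.079 over the 10 genes and 0.022 over all genes.

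The *Man1a* and *Edem2* calls in liver were lost when some single libraries were left out and under some other settings. *Man1a* missed the threshold without WT liver 2 (0.47, adjusted p = 0.0592), null liver 2 (0.43, 0.0606), WT liver 3 (0.38, 0.0963) or null liver 3 (0.43, 0.051). *Edem2* missed it without WT liver 1 (0.33), WT liver 2 (0.50), null liver 2 (0.34), WT liver 3 (0.48) or null liver 3 (0.41). With all 12 libraries in 1 fit the adjusted p was 0.122 for *Man1a* and 0.0678 for *Edem2*, and with total counts 0.0877 and 0.152. *Edem2* was also lost with upper-quartile factors (0.32, adjusted p = 0.121), with every gene of at least 1 count (adjusted p = 0.0611) and with at least 10 counts in every library (adjusted p = 0.0594). Without null liver 1, the library with skeletal muscle markers, 3 of the 10 genes passed, all of them higher in null. Over all genes, 3451 of 14501 passed in that fit, 1730 of them higher in null.

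*Man1a2* itself stood at 87.0, 54.2 and 68.6 CPM in the WT livers and 53.7, 48.2 and 50.2 CPM in the null livers. The null livers were all below the WT livers and lay close together, whereas the WT livers spread widely, and WT liver 2 was within 1 CPM of null liver 1. Null liver stood at 72.1% of WT on the fitted scale (log2 -0.47, SE 0.174, 95% interval -0.88 to -0.067), which missed the threshold (adjusted p = 0.0809). Without WT liver 2 the difference was -0.64 and passed (adjusted p = 0.0288), and without WT liver 1 it was -0.27 and did not (adjusted p = 0.211).

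*Man2a1* was also lower in each null liver, at 275, 304 and 306 CPM against 370, 402 and 351 CPM in WT, without reaching the threshold (log2 -0.34, SE 0.111, adjusted p = 0.0548). It passed as lower under 5 of the 15 alternatives, with DESeq2 (adjusted p = 0.0139), upper-quartile factors (0.0236), at least 10 counts in every library (0.0426), the GC and length trend removed (0.0284) and total counts (0.0214). *Man2a2* made up a share of the summed mannosidase II RPKM of 12.4 ± 1.89% in null liver against 5.74 ± 0.901% in WT liver (mean ± SD, n = 3), and the shares of the groups did not overlap. With the longest transcript as length both shares were larger, *Man2a1* and *Man2a2* standing at 42.2 and 9.04 RPKM in null liver.

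The remaining genes gave no call in liver. *Man1c1* had a log2 difference of -0.20 (95% interval -0.49 to 0.091), *Man1b1* of -0.068 (-0.26 to 0.12), *Edem1* of 0.080 (-0.16 to 0.32) and *Manea* of 0.077 (-0.19 to 0.34). These intervals hold 0 and leave room for changes of either sign, so none of the 4 is shown to be alike in the genotypes. *Edem3* had the widest interval, 0.48 (-0.31 to 1.27). It stood at 88.0, 85.9 and 85.4 CPM in the WT livers and at 86.5 and 77.1 CPM in null livers 1 and 2, but at 199 CPM in null liver 3. That single library set the sign, since the log2 difference without it was -0.089.

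In lung, no gene of the 10 passed the test with all 6 libraries, edgeR's quasi-likelihood test calling 0.0898% of 15591 genes higher in null and 0.237% lower. The groups did not overlap in 7 of the 10, against 35.9% of all genes, 4 of the 10 had an unadjusted p below 0.05, against 25.0% of all genes, and DESeq2 called 1, *Man1a2*, against 15.1%. The median log2 difference was 0.049 over the 10 genes and 0.062 over all genes. Without the library labelled null lung 1, 6 of the 10 genes passed, 3 of them higher in null against 18.0% of 15885 genes and 3 lower against 19.0%. The null group in that fit is 2 mice. When any of the other 5 lung libraries was left out instead, edgeR called 0 genes in the whole table, with 2082 to 3946 genes at an unadjusted p below 0.05.

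*Man1a2* stood at 105, 75.5 and 107 CPM in the WT lungs and at 42.5, 49.8 and 50.2 CPM in the null lungs, the first null value being that of the library labelled null lung 1. Every null lung was well below every WT lung. Null lung stood at 49.7% of WT on the fitted scale (log2 -1.01, SE 0.175, 95% interval -1.44 to -0.58, adjusted p = 0.0614). Without the library labelled null lung 1 the difference was -0.95 (SE 0.159, adjusted p = 0.0043) and passed.

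*Man1a* was at 40.2, 38.8 and 41.6 CPM in the WT lungs and at 43.0, 74.9 and 49.3 CPM in the null lungs. The null lungs were all above the WT lungs but far apart, null lung 2 being the highest. The log2 difference was 0.47 (95% interval -0.050 to 0.99, adjusted p = 0.233) with 6 libraries and 0.62 (0.24 to 0.996, adjusted p = 0.0216) without the library labelled null lung 1. *Man1c1* had no call either way, with 30.4, 25.3 and 27.3 CPM in WT lung and 23.2, 35.0 and 29.5 CPM in null lung, and a log2 difference of 0.082 (-0.35 to 0.52), or 0.21 (-0.075 to 0.50) without that library.

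*Man2a2* stood higher in each null lung than in any WT lung, at 80.5, 121 and 131 CPM in null against 76.6, 71.5 and 64.4 CPM in WT. Its log2 difference was 0.65 (SE 0.205, adjusted p = 0.136) with 6 libraries and 0.83 (SE 0.106, adjusted p = 0.00171) without the library labelled null lung 1. *Man2a1* (ENSMUSG00000024085, chr17:64600736-64755110) stood at 178, 157 and 185 CPM in the WT lungs and at 145, 233 and 224 CPM in the null lungs, so that the library labelled null lung 1 lay below the WT lungs and the other null lungs above them. The log2 difference of *Man2a1* was 0.21 (adjusted p = 0.562) with that library and 0.39 (SE 0.105, adjusted p = 0.0244) without it. *Manea* was at 37.4, 31.2 and 27.2 CPM in null against 21.9, 26.4 and 23.8 CPM in WT, with 0.41 (-0.0028 to 0.83) and 0.27 (-0.020 to 0.57) and no call in either fit.

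Of the quality control genes, *Man1b1* (ENSMUSG00000036646, chr2:25332338-25352212) was lower in null lung, at 40.9, 67.5 and 55.0 CPM against 82.1, 78.3 and 79.9 CPM in WT. Its log2 difference was -0.56 (adjusted p = 0.15) with 6 libraries and -0.40 (SE 0.108, adjusted p = 0.0251) without the library labelled null lung 1. *Edem2* was also lower, at 31.7, 32.5 and 27.6 CPM in null against 39.8, 44.0 and 37.0 CPM in WT, with -0.39 (adjusted p = 0.154) and -0.43 (SE 0.124, adjusted p = 0.0303). The library labelled null lung 1 lay within the range of the other null lungs for *Edem2*. For *Edem1* and *Edem3* it was the lowest lung library, at 33.2 and 58.5 CPM, and without it the log2 differences were 0.29 (adjusted p = 0.0598) and -0.079 (adjusted p = 0.522), against 0.015 and -0.29 with it.

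**Figure D3:**
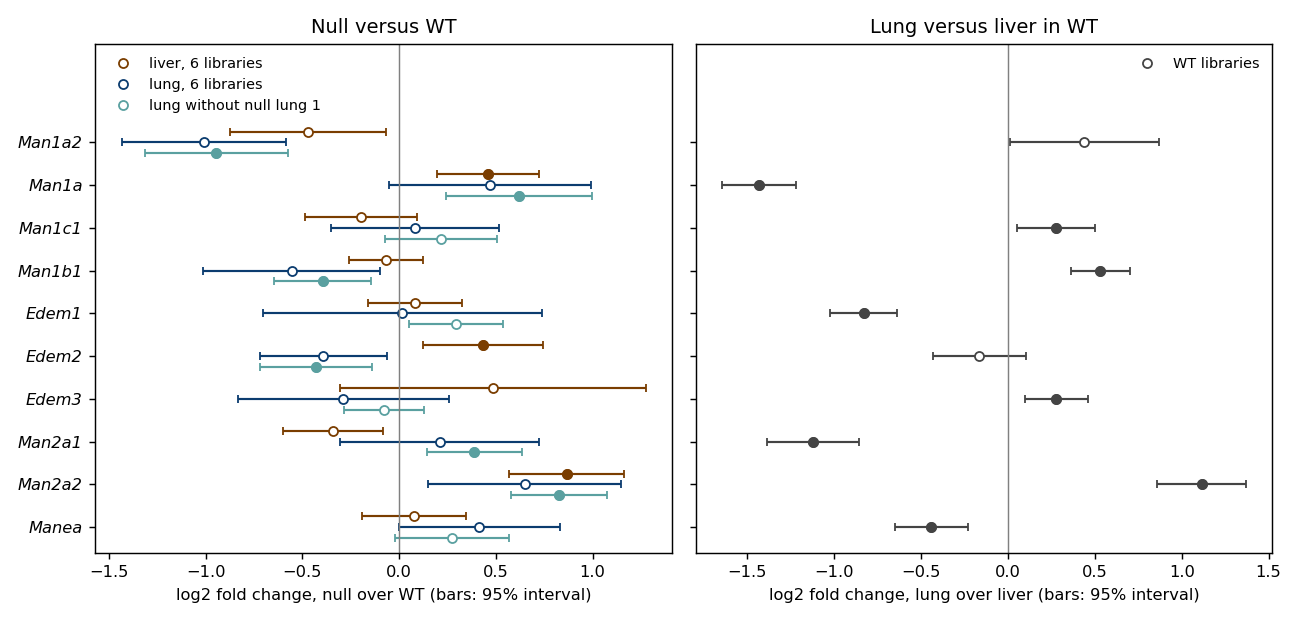
Log2 fold changes (x axes) with 95% intervals for the 10 genes (y axis), null over WT on the left for liver, for lung and for lung without the library labelled null lung 1, and lung over liver in WT mice on the right. Filled points passed the test and open points did not. *Man2a2* lies at 0.87 in liver, 0.65 in lung and 0.83 in lung without that library, whereas *Edem2* lies at 0.43 in liver and at -0.39 and -0.43 in lung.

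Whether the paralogs made up the *Man1a2* transcripts was read from the summed RPKM of the Golgi class I genes. In liver the sum was 23.9 ± 2.72 RPKM in WT and 25.2 ± 0.361 RPKM in null (n = 3), a log2 difference of 0.076 that was smaller than the spread of 0.161. The spread combines the SDs of the log2 sums of single WT and null libraries. It is wider than the error of a difference of means, so a difference below it is not shown to be absent. *Man1a* and *Man1c1* together stood at 16.1, 15.3 and 13.9 RPKM in the WT livers and at 18.0, 19.4 and 18.9 RPKM in the null livers, the groups not overlapping. In lung the sum was 21.03 ± 2.70 RPKM in WT and 16.8 ± 3.15 RPKM in null, or 18.4 ± 2.52 RPKM (n = 2) without the library labelled null lung 1. The WT and null lungs overlapped, and the log2 difference of -0.32 was smaller than the spread of 0.332. It was -0.20 without the library labelled null lung 1. *Man1a* and *Man1c1* together stood at 9.48, 8.43 and 9.08 RPKM in the WT lungs and at 8.51, 13.9 and 10.3 RPKM in the null lungs, with the library labelled null lung 1 within the WT range. The sums depend on scaling and on the length given to each gene. With total counts in place of TMM, the liver difference turned negative and the lung difference became larger than its spread above. With the longest transcript as length, the liver difference became larger than its spread above and the lung difference smaller. These sums count *Man1a2* reads from the null mice in full, although the null allele lacks exon 2.

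*Man1a2* made up a larger part of the Golgi class I transcripts in lung than in liver. Its share was 40.4%, 30.7% and 38.3% in the WT livers and 58.1%, 52.9% and 59.7% in the WT lungs. In null mice it was 27.2%, 23.8% and 24.95% in liver and 38.5%, 31.0% and 38.0% in lung, so that within each tissue every null library was below every WT library, with or without the library labelled null lung 1. The share is a ratio within a library and does not depend on scaling, but it does depend on the length given to each gene. With the longest transcript in place of the union of all exons, which shortens *Man1a* from 9647 to 5137 bases, the mean shares fell to 25.3% in WT liver, 16.2% in null liver, 46.5% in WT lung and 26.4% in null lung (25.3% without the library labelled null lung 1).

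**Figure D4:**
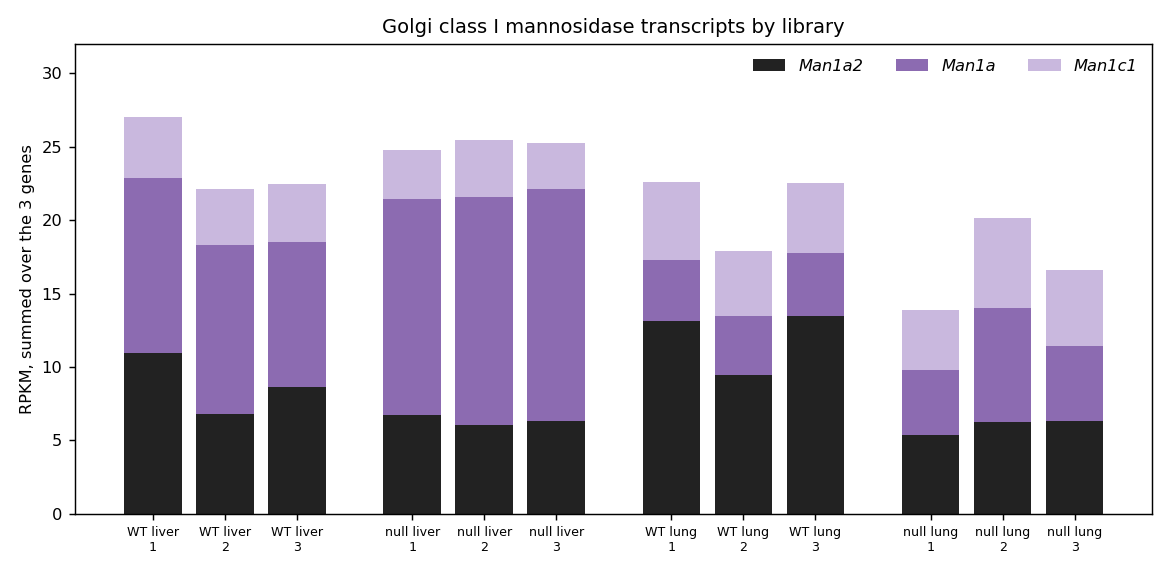
Summed RPKM (y axis) of *Man1a2*, *Man1a* and *Man1c1* in each of the 12 libraries (x axis), with 1 stacked bar per library and 1 colour per gene. The *Man1a2* part is smaller in the null bars of both tissues, *Man1a* is the largest part in each liver, and the sums lie between 22.1 and 26.997 RPKM in liver and between 13.8 and 22.6 RPKM in lung.

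An interaction term tested whether the genotype effect differed between lung and liver, over 16155 genes, of which 0.371% passed. With all 12 libraries, edgeR called 0 of the 10 genes, 3 had an unadjusted p below 0.05 (*Edem2*, *Man1b1* and *Man2a1*), against 13.9% of all genes, and DESeq2 called 1, *Edem2*, against 3.94%. For *Man1a2* the log2 difference in lung minus that in liver was -0.55 (95% interval -1.12 to 0.028, adjusted p = 0.39), so the 2 tissues are not shown to differ in it. It was -0.45 (-1.04 to 0.13) without the library labelled null lung 1. For *Man1a* the difference was 0.011 (-0.55 to 0.57) and for *Man2a2* -0.22 (-0.78 to 0.34), and without that library they were 0.18 (-0.29 to 0.66) and -0.017 (-0.40 to 0.36). These fits, and those of the next paragraph, did not pair the liver and the lung of the same mouse. With the mouse as a block, edgeR called 0 of the 10 genes and 0 genes in the whole table. In that fit 3 of the 10 had an unadjusted p below 0.05, against 2224 of 16155 genes.

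*Edem2* gave the largest difference between tissues, being higher in null liver and lower in null lung, by -0.83 (SE 0.195, adjusted p = 0.101). Without the library labelled null lung 1 it was -0.84 and passed (adjusted p = 0.0449), and without both libraries that hold muscle transcripts it was -0.95 and passed (adjusted p = 0.0214). *Man2a1*, lower in null liver and higher in null lungs 2 and 3, had 0.55 (adjusted p = 0.361) with all libraries, 0.75 without the library labelled null lung 1, which passed (adjusted p = 0.0278), and 0.68 without both libraries, which did not (adjusted p = 0.0523).

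A list of 20 other genes of N-glycan trimming and breakdown was examined in the same fits. In liver, 19 were tested and 6 passed (31.6%), against 26.9% of all genes. The 2 that rose were *Prkcsh*, the β-subunit of glucosidase II (log2 0.47, adjusted p = 0.0293), and *Man2b1*, the lysosomal α-mannosidase (0.42, adjusted p = 0.0464). The 4 that fell included *Ngly1*, which strips glycans from misfolded proteins in the cytosol (-0.64, adjusted p = 0.0115), *Engase*, a cytosolic enzyme that cuts the freed glycans (-0.60, adjusted p = 0.0206), and *Mgat1*, the transferase between the class I and class II steps (-0.47, adjusted p = 0.0168). The median log2 difference was 0.13 over the list and 0.022 over all genes. Of the list, 3 genes passed with all 12 libraries in 1 fit, 3 without null liver 2, 2 without WT liver 1 and 1 without WT liver 3. Over all genes the calls in these fits were 1921 of 16155, 3395 of 14582, 2150 of 14541 and 1641 of 14529. Both rises were lost with upper-quartile factors and with total counts, where 4 list genes passed, all lower in null. Over all genes, 1434 were then higher and 2666 lower with upper-quartile factors, and 1069 and 2284 with total counts. No list gene passed as higher without WT liver 1, null liver 2, WT liver 3 or null liver 3, where 804 to 1735 of all genes did.

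In lung, 0 of the 20 list genes passed by edgeR with 6 libraries, against 51 of 15591 genes. Of the list, 5 had an unadjusted p below 0.05, against 25.0% of all genes, and 3 passed by DESeq2, against 15.1%. The list counts were thus near those of all genes. The median was -0.096 over the list and 0.062 over all genes. Without the library labelled null lung 1, 7 passed (35.0%), against 37.0% of all genes. Of these, *Os9*, a lectin of glycoprotein degradation, was higher (0.30, adjusted p = 0.0498), and 6 were lower. They included *Maneal*, a relative of *Manea* counted near the limit of detection (-1.81, adjusted p = 0.0343), *Mogs*, which removes the first glucose (-0.74, adjusted p = 0.00728), and *Mgat2*, the transferase that adds the next branch after mannosidase II (-0.59, adjusted p = 0.00389). *Mogs* was also the only list gene to pass the test of the difference between tissues with all 12 libraries (-0.99, adjusted p = 0.0484), but 0 list genes passed with the mouse as a block, with DESeq2's size factors, with upper-quartile factors, with the GC and length trend removed or with every gene of at least 1 count. With the block, edgeR called 0 genes in the whole table, with 2224 at an unadjusted p below 0.05.

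Between the WT tissues, 14 of the 20 list genes passed (70.0%), against 77.0% of all genes, 13 of them lower in lung, and the median was -0.75 against 0.041 over all genes. They included *Calr*, the chaperone calreticulin (-1.87, adjusted p = 9.5e-06), *Lman1*, a cargo receptor for secreted glycoproteins (-1.61, adjusted p = 1.1e-06), and *Man2b1* (-1.44, adjusted p = 5.7e-06). *Maneal* was higher in lung, at 0.377 CPM against 0.053 CPM. With total counts in place of TMM, 12 passed and 8 of these were higher in lung. The list median was then 0.044 against 0.83 over all genes, so the list stayed below all genes under both scalings. Over all genes, 13130 of 15635 then passed, 10133 of them higher in lung.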

How the data were processed

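Stranded, polyadenylated RNA libraries were read as 75-base pairs on a NextSeq by the authors, who deposited 1 table of raw counts for each library, listed by gene symbol and not normalized. The submitters' processing notes name the mm10 build, FastQC, STAR 2.5.2a and DESeq2. The counting program and its treatment of strand and of reads that map to several genes are not given in the sources used here. *Hba-a1* and *Hbb-bt*, 2 of the 5 red cell markers, were at 0 in every library. Spreadsheet dates had replaced 27 gene names. The 10 mannosidase genes and the lists were chosen with earlier results of these data known.

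Counts were tested with edgeR 4.0.16 in R 4.3.3 (filterByExpr, TMM, quasi-likelihood test) over all genes that passed the filter. A call needed a Benjamini-Hochberg adjusted p below 0.05 and at least a 1.2-fold difference, the thresholds of the study. Only the groups compared entered each fit, except for the difference between tissues, which used all 12 libraries. RPKM used the union of exons in GENCODE M21 on GRCm38, which gave a length for 95.6% of listed genes. The tests were checked on simulated counts with the same spread between replicates in every comparison. The common dispersion fitted to the data, a measure of that spread, was 0.0213 between the WT tissues and 0.172 for null versus WT in lung. The check therefore does not show how well the lung tests find changes. A gene with 3 counts stood at 0.0699 to 0.112 CPM of the total counts, without TMM scaling. Replicates are separate mice, and the lowest chi-square per gene between libraries of a group was 14.7, so no library was a copy of another.

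Genes named in the text are the 10 mannosidase genes, the genes of the list that passed (the 3 largest in each direction where more did), and the 5 genes most like *Man1a2*, of which 2 are not reported here. Liver and lung of the same number come from the same mouse by the design text. Their deviations from the group means correlated at 0.11 to 0.16 in WT and 0.334 to 0.424 in null. WT and null libraries of number 3, from different mice, reached 0.116 in liver and 0.109 in lung. These values therefore cannot decide the pairing, which rests on the design text. WT and null libraries of the same number are different mice. Alternatives were DESeq2 1.42.0, other scaling factors, other filters on low counts, all 12 libraries in 1 fit, removal of a trend on GC content and length, a replicate block, and each library left out. Total counts in place of TMM, and the fit without both libraries that hold muscle transcripts, were added after the data were seen.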

Additional observations from a re-analysis of the deposited data

How the results depend on the processing

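*Man2a2* in liver passed under all 15 alternatives, with log2 differences of 0.72 to 0.95. Mannosidase genes called in liver numbered 3 and became 5 with DESeq2 or with the GC and length trend removed, 1 with all 12 libraries in 1 fit and 1 to 3 with a library left out. In lung 0 became 1 with DESeq2 or total counts, 3 with all 12 libraries and 0 to 6 with a library left out, and for the difference between tissues 0 became 1 with DESeq2 or without both libraries with muscle transcripts and 0 to 2 with a library left out. Over all genes, the 3856 calls in liver became 4530 of 15181 with DESeq2 and 4098 of 14343 with the trend removed. They became 1921 of 16155 with all 12 libraries and 1641 to 3451 with a library left out. The 51 in lung became 2355 of 15574 with DESeq2, 317 of 15591 with total counts and 2284 of 16155 with all 12 libraries. They became 5881 of 15885 without the library labelled null lung 1 and 0 with any other library left out. For the difference between tissues, 60 became 610 of 15473 with DESeq2, 840 of 16216 without both libraries and 0 to 813 with a library left out. Calls in liver were 1931 higher and 1925 lower, and 1434 and 2666 with upper-quartile factors, which moved the median of all genes from 0.022 to -0.086. *Man1a2* passed in liver with DESeq2 (-0.47), upper-quartile factors (-0.58) and the trend removed (-0.56), and in lung with DESeq2 (-0.999), all 12 libraries (-1.01) and total counts (-1.14). Its range with a library left out was -0.64 to -0.27 in liver, -1.16 to -0.92 in lung and 0.28 to 0.62 between tissues. Between the WT tissues it also passed with DESeq2 (0.44), upper-quartile factors (0.49), at least 1 count (0.46), at least 10 counts (0.49), total counts (1.22) and the replicate block (0.45).

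Signs turned only in genes without a call in the reported fit, apart from *Manea* between tissues (0.35 with total counts, where *Edem2* became 0.63). In liver *Edem1* became -0.027 and *Manea* -0.031 with upper-quartile factors, and -0.058 and -0.052 with total counts, and with a library left out *Edem3* ranged from -0.089 to 0.71 and *Manea* from -0.030 to 0.14. In lung *Edem1* became -0.040 with upper-quartile factors, -0.043 with the trend removed, -0.061 with the block and -0.12 with total counts, and *Man1c1* -0.048 with total counts. With a library left out *Edem1* ranged from -0.20 to 0.29 and *Man1c1* from -0.053 to 0.21. In the difference between tissues *Man1a* became -0.0038 with the trend removed and -0.034 with the block, and ranged from -0.24 to 0.18 with a library left out, *Edem1* ranged from -0.28 to 0.23, and without both libraries with muscle transcripts *Edem1* became 0.15 and *Man2a2* 0.048. The cause was not tested. *Man1a* and *Man1c1* together moved from 0.32 to 0.18 (log2, liver) with total counts, and the *Man1a2* share with the longest transcript to 25.3, 16.2, 46.5 and 26.4%. WT and null libraries of the same number correlated at -0.10 to 0.12. The replicate block gave 3 mannosidase genes called in liver and 0 in lung, against 3304 of 14343 and 0 of 15591 genes. Among the mannosidase genes the block changed no call but that of *Man1a2* between the WT tissues.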

Other observations

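Over the 12 libraries, the genes whose log2 CPM followed *Man1a2* most closely among 16145 genes were *Capza1*, an actin-capping subunit (Pearson's r = 0.947), *Bcorl1*, a transcriptional corepressor (0.916), and *Pex10*, a peroxisome assembly factor (0.905). The libraries share genotype and tissue, so these values describe the order of 4 groups more than 12 separate points, and they carry no p. *Pex10* stood at 6.09 ± 0.417, 2.98 ± 0.0765, 9.99 ± 0.667 and 3.42 ± 0.762 CPM in WT liver, null liver, WT lung and null lung (mean ± SD, n = 3). *Capza1* stood at 59.2 ± 7.92, 40.9 ± 1.57, 76.8 ± 15.8 and 41.7 ± 10.2 CPM in the same order. Without the library labelled null lung 1, which holds muscle transcripts, the null lungs stood at 3.55 ± 1.03 CPM for *Pex10* and 47.5 ± 3.66 CPM for *Capza1* (n = 2). Among the mannosidases, *Man1b1* was the most like *Man1a2* (r = 0.762) and *Manea* the least (r = -0.705), with *Man1a* at -0.403.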
